A study of Mus musculus with 4 samples.

Results

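The 38 Wnt pathway genes described here are 18 Wnt ligands, 10 Frizzled receptors, the co-receptors Lrp5 and Lrp6, the 4 TCF/LEF factors Lef1, Tcf7, Tcf7l1 and Tcf7l2, the secreted modulators Rspo3, Dkk1 and Sfrp1, and the feedback inhibitor Axin2. The genes were listed by name. Peaks of 4 ATAC-seq libraries that overlapped were merged into 40910 union regions, and each region was given to the protein-coding gene with the nearest transcript start within 100 kb. Of the 35041 regions that found a gene in this way, 143 belonged to 37 of the 38 genes, and Wnt10b had none. ATAC-seq marks open chromatin through the insertion of adapters by a transposase. The cells were wild-type ES-E14TG2a mouse embryonic stem cells (mESCs), 1 established line, collected at day 2 (d2) and day 4 (d4) of differentiation through cardiogenic mesoderm toward endothelial cells, with 2 libraries per time point from separate differentiation experiments. At d2 the embryoid bodies had grown in serum-free medium alone. At d4 they had also been dissociated and reaggregated with human Activin A, BMP4 and VEGF, so the added factors and the later time cannot be told apart. The cells were not sorted, and a region of a minor cell population cannot be told apart from weak opening in all cells.

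Wnt ligands are secreted lipid-modified proteins that bind Frizzled receptors together with LRP5 or LRP6. In the canonical branch this stops the destruction complex, to which Axin2 belongs, from degrading beta-catenin, which then enters the nucleus and joins TCF/LEF factors on DNA. R-spondins amplify the signal at the membrane, whereas DKK1 blocks LRP5 and LRP6 and SFRP1 binds the ligands themselves. Canonical Wnt signalling is needed for the primitive streak and for mesoderm, and in cardiac mesoderm it first promotes the formation of cardiogenic mesoderm and later restrains cardiac differentiation.

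The peak lists held between 21299 and 26865 peaks per library, and the d2 libraries were the shallower ones. Their background coverage, which stands for depth, was 0.752 (replicate 1) and 0.640 (replicate 2) of the deepest library, which was replicate 1 of d4. A region was called gained when both d4 lists but no d2 list held a peak there, lost in the opposite case, and shared when all 4 lists held a peak. The value of a peak is its fold enrichment at the summit, the ratio of pileup to local background after 1 is added to each. The added 1 pulls the ratio down, and more so where the background is low. A missing peak means that the authors' threshold was not reached, not that the chromatin was closed. An exact permutation test of 2 against 2 libraries has a smallest two-sided p of 0.333, so gained and lost regions are described without a test. Among marker genes of the cell types that the cultures could hold, pluripotency genes had 3 gained and 9 lost regions of 39 (7.69% and 23.1%), early mesoderm genes 7 and 3 of 34 (20.6% and 8.82%), and endothelial genes 4 and 2 of 41 (9.76% and 4.88%). Cardiac genes had 6 and 4 of 43 (14.0% and 9.30%), endoderm genes 4 and 7 of 25 (16% and 28%), and neural genes 1 and 8 of 27 (3.70% and 29.6%). Over all regions of protein-coding genes 8.48% were gained and 13.2% lost. The part of other cell types in the results below was not tested.

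The strongest gained and lost regions are shown first, as windows of 100 bases to each side of the summit on the + strand of mm10, read from the RefSeq GRCm38.p6 genome. They were chosen by the lower of their 2 fold enrichments, and the gained and lost windows that hold a TCF/LEF word were added, without those of Wnt8a and without windows that reach into a UTR. Capitals mark the TCF/LEF words CTTTGAT or CTTTGAA and the GATA words AGATAA or TGATAA on either strand. The Wnt2 window at chr6:17952994-17953194 is intergenic and was gained, and the one at chr6:18003301-18003501 lies in an intron of Wnt2 and was gained. The Fzd7 windows are the gained one at chr1:59409688-59409888 and the lost one at chr1:59449014-59449214, both upstream of Fzd7. The first is intergenic, and the region of the second lies in the gene model Gm37737, 232 bp from its start. The intergenic Fzd10 windows are the lost one at chr5:128524664-128524864 and the gained one at chr5:128542118-128542318. The lost Tcf7l1 window at chr6:72794927-72795127 is intergenic, and the lost Wnt7a window at chr6:91409502-91409702 is intronic in Wnt7a.
Wnt2, gained, 77.3 kb from the start: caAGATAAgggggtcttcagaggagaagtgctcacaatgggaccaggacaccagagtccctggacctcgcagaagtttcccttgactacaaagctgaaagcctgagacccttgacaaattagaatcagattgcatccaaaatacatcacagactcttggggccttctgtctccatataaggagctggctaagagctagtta
Wnt2, gained, 27.1 kb from the start: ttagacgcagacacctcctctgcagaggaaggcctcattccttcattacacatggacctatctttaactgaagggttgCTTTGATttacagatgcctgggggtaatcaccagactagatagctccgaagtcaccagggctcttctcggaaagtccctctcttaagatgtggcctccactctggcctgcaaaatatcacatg
Fzd7, gained: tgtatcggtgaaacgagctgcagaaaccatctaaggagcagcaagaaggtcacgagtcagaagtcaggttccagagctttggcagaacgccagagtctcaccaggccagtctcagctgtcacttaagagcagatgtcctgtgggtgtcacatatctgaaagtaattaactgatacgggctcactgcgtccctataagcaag
Fzd7, lost: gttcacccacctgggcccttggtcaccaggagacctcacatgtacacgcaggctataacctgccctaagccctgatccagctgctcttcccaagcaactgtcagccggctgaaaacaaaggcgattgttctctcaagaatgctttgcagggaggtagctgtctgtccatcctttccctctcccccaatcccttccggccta
Fzd10, lost: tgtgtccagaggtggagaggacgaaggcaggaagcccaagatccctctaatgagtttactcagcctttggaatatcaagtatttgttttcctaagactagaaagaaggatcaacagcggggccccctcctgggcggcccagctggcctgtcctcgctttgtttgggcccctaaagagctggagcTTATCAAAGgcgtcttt
Fzd10, gained: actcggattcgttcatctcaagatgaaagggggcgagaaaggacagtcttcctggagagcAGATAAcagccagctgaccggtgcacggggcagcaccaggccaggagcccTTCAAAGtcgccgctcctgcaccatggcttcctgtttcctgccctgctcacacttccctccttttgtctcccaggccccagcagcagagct
Tcf7l1, lost: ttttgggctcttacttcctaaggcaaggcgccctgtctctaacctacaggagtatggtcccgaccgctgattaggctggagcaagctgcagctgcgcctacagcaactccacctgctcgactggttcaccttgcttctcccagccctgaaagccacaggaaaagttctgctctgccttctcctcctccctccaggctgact
Wnt7a, lost: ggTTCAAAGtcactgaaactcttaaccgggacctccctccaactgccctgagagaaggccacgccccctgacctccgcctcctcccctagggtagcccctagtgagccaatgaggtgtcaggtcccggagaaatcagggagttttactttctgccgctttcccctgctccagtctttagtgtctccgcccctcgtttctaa
In the lost Fzd10 window the GATA word and the TCF/LEF word overlap, so its capitals form 1 run. The gained Fzd10 window holds both words apart from each other. Neither Fzd7 window and not the Tcf7l1 window holds any of these words.

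Of the 143 Wnt regions, 15 were gained and 26 were lost, and 24 were shared. Gained regions made up 10.5% of the Wnt regions against 8.48% of all regions of protein-coding genes, and lost regions 18.2% against 13.2%. The gained share depended on the assignment. It was 7.87% against 8.71% with starts of all coding transcripts, 3.33% against 9.67% with starts of genes of any type, and 4.76% against 5.65% within 20 kb. Shared regions were 16.8% against 31.9%. Fewer Wnt regions lay within 1 kb of a start, where most shared regions lie, at 31.5% against 44.6% of all. Within 1 kb of a start 37.8% of the Wnt regions were shared against 59.8% of all, and farther away 7.14% against 9.48%. The lost regions outnumbered the gained ones by 1.73 times in the Wnt genes and 1.56 times in the whole table. When each library was held to its top 15000 peaks, the ratios of lost to gained were 1.40 and 0.984, and without d4 replicate 2 they were 1 and 0.995, so the direction in the whole table did not hold in these settings. A further 7 regions had a peak in 3 libraries, or 4.90% against 8.23% of all regions of protein-coding genes. Another pair of libraries was found at 5, against 1279 of all 35041. A peak in 1 library only was found at 66, or 46.2% against 34.5%. Leaving out d2 replicate 1 or d2 replicate 2 raised the lost regions to 58 and 46, because a peak in the other d2 library then sufficed. These were 45.7% and 40.4% of the Wnt regions, against 26.1% and 28.3% of all. Leaving out d4 replicate 2 raised the gained ones to 29, or 20.7% against 16.9%.

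**Figure D1:**
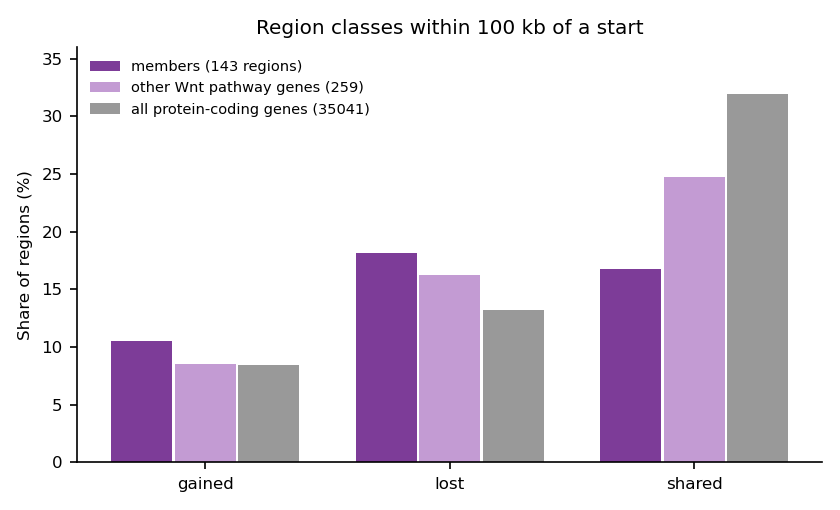
Share of regions (bars, in percent) that were gained, lost or shared, for the 143 regions of the listed Wnt genes, the 259 regions of 78 other Wnt pathway genes and all 35041 regions of protein-coding genes. Gained and lost shares were 10.5% and 18.2% for the listed genes, and their shared regions were fewer, at 16.8% against 31.9%. The bars do not separate regions near a start from distal ones.

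By gene, 10 of the 37 Wnt genes had at least 1 gained region and 16 had at least 1 lost region. Over all 15068 protein-coding genes with a region, 15.2% had a gained and 24.6% a lost one. The Wnt genes had more regions to draw on per gene, so these shares are given without a comparison. Both kinds were found at 5 genes, namely Wnt2b, Fzd7, Fzd10, Tcf7l1 and Axin2, and 16 genes had neither. Of all 15068 genes 743 had both, 9813 neither, 1553 only gained and 2959 only lost regions. Only gained regions were found at Wnt2, Wnt3, Fzd4, Lrp5 and Dkk1. Only lost regions were found at 11 genes, among them Wnt8a, Wnt9b, Lef1 and Tcf7.

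All 15 gained Wnt regions lay outside the 1 kb around a start, as did 91.0% of all gained regions. Of the 98 distal Wnt regions, 15 were gained, or 15.3% against 14.0% of all distal regions, and 22 were lost, or 22.4% against 17.0%. The gained regions lay 7.38 to 91.6 kb from the start of their gene, with a median of 39.6 kb against 21.3 kb for all gained regions. The lost regions lay closer, with a median of 9.28 kb against 9.44 kb for all lost regions. Of the gained regions, 9 were intergenic and 6 intronic. Of the lost regions, 15 were intergenic, 5 intronic, 4 at the promoter and 2 near the start of another transcript. The link from a distant region to its gene is one of position alone. When starts of genes of any type, noncoding ones included, were allowed to claim a region, 3 of the 15 gained and 16 of the 26 lost regions stayed with the Wnt gene. Starts of all transcripts of protein-coding genes left 10 and 24 with it. The 3 gained regions were the intronic one of Wnt2 and those of Lrp5 and Axin2.

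**Figure D2:**
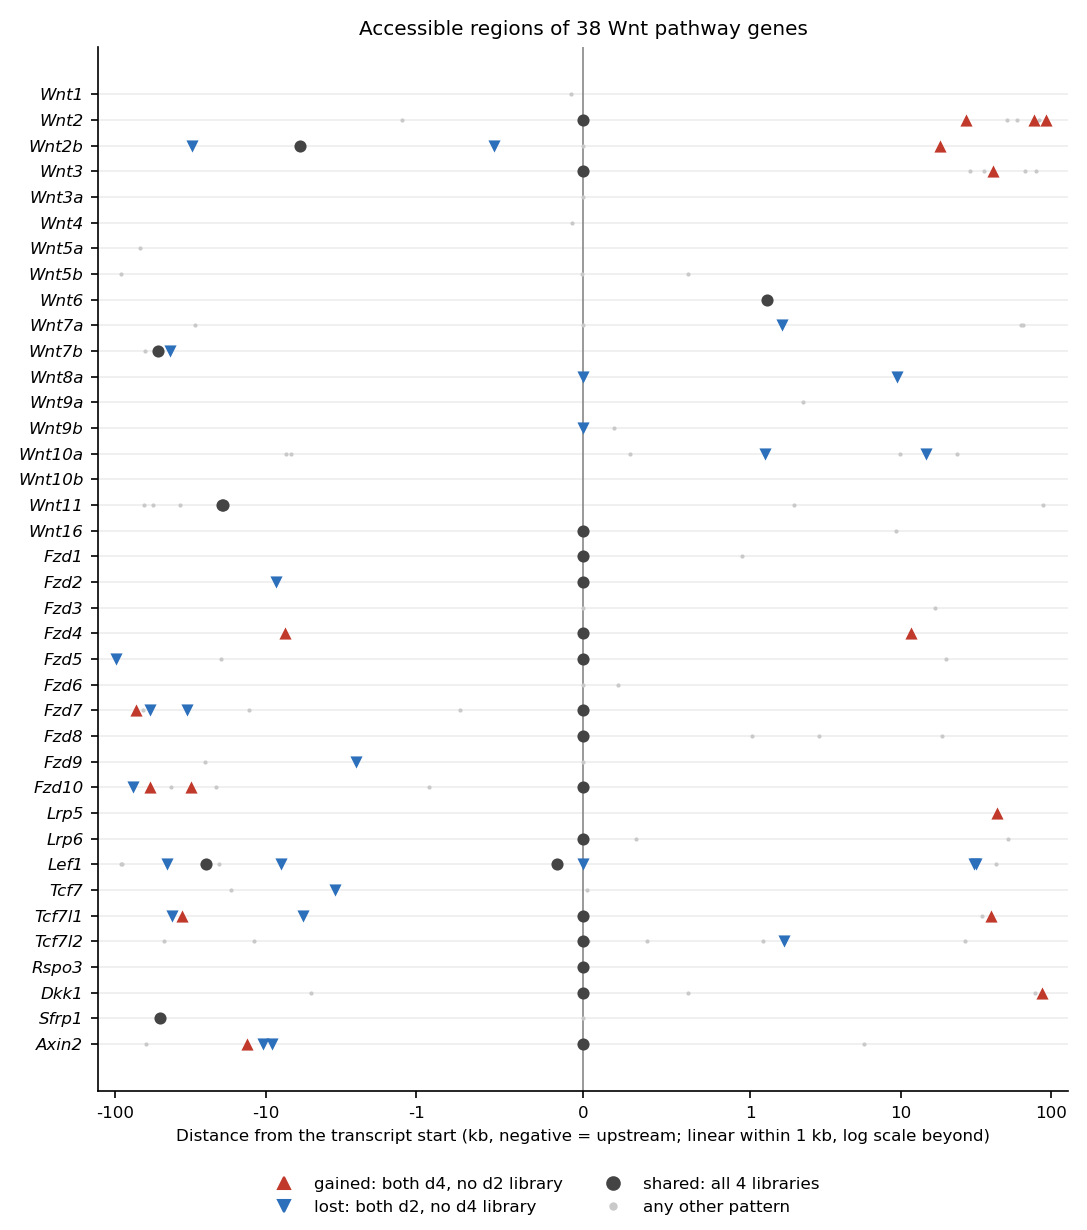
Each row is 1 of the 38 genes and each symbol 1 of the 143 regions, placed by its distance from the transcript start in kb (linear within 1 kb, logarithmic beyond). Gained regions (15 red triangles) all sit away from the line at 0, whereas 17 of the 24 shared regions (black circles) lie within 1 kb of a start and Wnt8a, Wnt9b, Wnt2b and Lef1 have a lost region (blue) there.

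Among the ligands, 5 of 57 regions were gained and 9 were lost, or 8.77% and 15.8%, against 8.48% and 13.2% of all regions. Wnt2, a ligand of early cardiac mesoderm, had the most gained regions of any listed gene, with 3 of its 9, and no lost one. The strongest, 77.3 kb downstream of its start between genes, had fold enrichments of 10.2 and 13.1 in d4 replicates 1 and 2. The region 91.6 kb downstream, in an intron of St7, had 7.94 and 7.01, and the one 27.1 kb downstream in Wnt2 itself had 6.89 and 6.88. The Wnt2 promoter was open in all 4 libraries, with fold enrichments of 5.49 and 6.48 at d2 and 9.16 and 7.96 at d4. Both d4 values lay above both d2 values, as they did in 23.6% of all shared regions on the centred scale used below. The difference did not pass the adjusted threshold of the limma test below. Around the same gene, 4 further regions had a peak in 1 d4 library only and 1 had a peak in d2 replicate 2 only. When all transcript starts of protein-coding genes were used, the regions at 77.3 and 91.6 kb went to the neighbouring gene St7.

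Wnt3, which is required to form the primitive streak, had 1 gained region 40.8 kb downstream of its start in its own intron, with fold enrichments of 8.31 and 4.49, so it was weak in d4 replicate 2. With all transcript starts of protein-coding genes this region went to the gene Nsf. The Wnt3 promoter was shared, at 7.22 and 8.82 in d2 and 6.23 and 6.10 in d4. Wnt2b, a relative of Wnt2, exchanged regions. It gained one 18.2 kb downstream of its start (7.20 and 6.75) and lost one 0.532 kb upstream (4.90 and 4.89) and one 30.9 kb upstream (9.33 and 8.78).

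The strongest lost ligand regions were the promoters of Wnt8a and Wnt9b. Both regions of Wnt8a, a ligand of the posterior primitive streak, were lost. Its promoter region had fold enrichments of 11.04 and 10.5 in d2 replicates 1 and 2, with summit pileups of 26 and 24, and no peak at d4. The other, 9.46 kb downstream, had 5.08 and 8.94. Wnt9b, known for inducing kidney tubules, lost its promoter region, with 9.86 and 14.2 at d2. The d2 replicate 2 value at Wnt9b was the highest of any lost Wnt region. Wnt10a, known from tooth and skin, lost an intronic region 1.25 kb into the gene (4.71 and 5.48) and an intergenic one (4.93 and 6.67), both weak. Wnt7a, which patterns the limb, lost an intronic region at 6.63 and 6.36, and Wnt7b, which acts in lung and brain vessels, lost one 43.3 kb upstream at 7.51 and 5.89. Wnt5a, the main non-canonical ligand of the gastrulating embryo, had only 1 region, called in d4 replicate 1 at 5.71. Wnt11, another non-canonical ligand that acts in heart formation, had neither gained nor lost regions, and its 2 shared regions lay upstream of the gene.

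**Figure D3:**
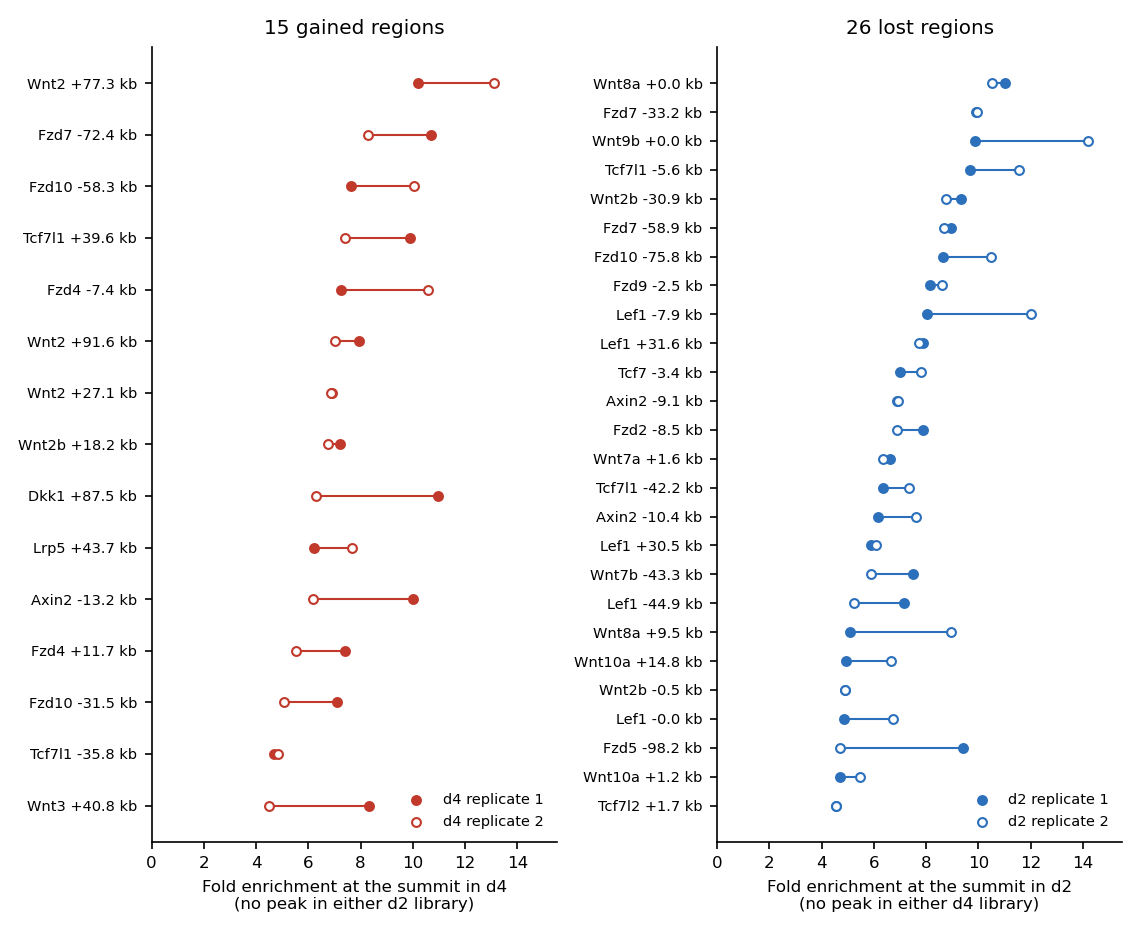
Fold enrichment at the summit (x axis, ratio) of each gained region in the 2 d4 libraries (left) and each lost region in the 2 d2 libraries (right), ordered by the lower value and named by gene and distance from the start. Wnt2 leads the gained regions with 10.2 and 13.1, and the Wnt8a promoter leads the lost ones with 11.04 and 10.5.

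The 10 Frizzled genes, which encode the receptors, had 36 regions, of which 5 were gained, 6 lost and 7 shared. These were 13.9%, 16.7% and 19.4%, against 8.48%, 13.2% and 31.9% of all regions of protein-coding genes. Fzd4, a receptor needed in blood vessels, gained 2 regions and lost none. The one 7.38 kb upstream, in an intron of Tmem135, had fold enrichments of 7.24 and 10.6 at d4, and the one 11.7 kb downstream had 7.42 and 5.53. With all transcript starts of protein-coding genes the upstream one went to Tmem135. Fzd7, a main receptor of pluripotent stem cells, exchanged regions upstream of its start. A region 72.4 kb upstream was gained at 10.7 and 8.30, while a region that began 12992 bp further on was lost at 8.94 and 8.68, and another 33.2 kb upstream was lost at 9.89 and 9.97. The Fzd7 promoter stayed open, at 8.35 and 8.04 in d2 and 7.86 and 7.40 in d4.

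Fzd10 showed a like exchange. Its lost region 75.8 kb upstream had 8.64 and 10.5 at d2, and a region gained at 7.63 and 10.1 began 16992 bp further on, toward the gene. A second region, 31.5 kb upstream, was gained at 7.11 and 5.06. The windows of the lost and the stronger gained region are those printed above with both words. Lost regions without a gained one were found at Fzd2 (7.87 and 6.89), Fzd9 (8.14 and 8.62) and Fzd5. The Fzd5 region lay 98.2 kb from its start, 671 bp from a start of Plekhm3, and had 9.41 and 4.72 with a pileup of 6 in d2 replicate 2. Fzd1, Fzd3, Fzd6 and Fzd8 had no gained or lost region.

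The co-receptor Lrp5 had 1 region in all, and it was gained, 43.7 kb into the gene at 6.22 and 7.66. Lrp6, its close relative, had no gained or lost region, and its promoter was shared at 7.12 and 7.39 in d2 and 8.40 and 8.34 in d4. Dkk1, the inhibitor of both co-receptors, gained a region 87.5 kb downstream of its start at 10.95 and 6.31, and its promoter was shared. Rspo3, an R-spondin active in vessels, had only a shared promoter region, at 6.90 and 8.35 in d2 and 4.89 and 5.57 in d4. Sfrp1 had a shared upstream region and a promoter region called in d2 replicate 2 alone, at 6.44.

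The TCF/LEF genes, which encode the DNA-binding partners of beta-catenin, had 30 regions with 9 lost and 2 gained. Lef1, the family member most often seen as an activator, had 12 regions, the most of any listed gene. Of these, 5 were lost, also the most of any listed gene, and none was gained. The strongest lost one, 7.91 kb upstream, had fold enrichments of 8.05 and 12.0 at d2. The others had 7.88 and 7.74 at 31.6 kb downstream, 5.90 and 6.10 at 30.5 kb downstream, 7.17 and 5.23 at 44.9 kb upstream, and 4.87 and 6.72 at a promoter. A further Lef1 promoter region stayed open in all 4 libraries, so not all of its starts lost their peak. Tcf7 lost a region 3.44 kb upstream at 7.01 and 7.79, and its promoter region was called in replicate 1 of each time point only.

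Tcf7l1, the repressor of this family that restrains pluripotency genes in mESCs, lost 2 regions and gained 2. The lost ones, 5.65 and 42.2 kb upstream, had 9.69 and 11.6 and then 6.35 and 7.33. The gained one in its intron, 39.6 kb from the start, had 9.89 and 7.40 with pileups of 34 and 25, and the gained one 35.8 kb upstream had 4.69 and 4.82. When all transcript starts of protein-coding genes were used, the regions at 35.8 and 42.2 kb went to the gene Kcmf1. Tcf7l2 lost a weak intronic region 1.68 kb from its start at 4.53 and 4.55. Axin2, a scaffold of the destruction complex and itself a target of the pathway, exchanged regions within a stretch of 4306 bp that lay 9.11 to 13.2 kb upstream of its start. Its gained region had 10.0 and 6.18 at d4, and the lost ones had 6.18 and 7.61 and 6.90 and 6.91 at d2. The gained region ended 2510 bp before the first lost one began, and the Axin2 promoter was shared.

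Peaks at the starts are counted here gene by gene. A peak within 1 kb of a start was found in all 4 libraries at 3 of 18 ligand genes (Wnt2, Wnt3 and Wnt16) and at 7 of 10 Frizzled genes. Over the 37 listed genes with a region it was found at 17, or 45.9%, against 60.5% of all protein-coding genes with a region. No listed gene had a start peak at d4 while lacking one at d2, against 2.00% of all genes. The reverse held for 10 genes, or 27.0% against 11.1%, of which 4 (Wnt2b, Wnt8a, Wnt9b and Fzd6) had one in both d2 libraries and 6 (Wnt1, Wnt3a, Wnt4, Wnt7a, Wnt10a and Sfrp1) in d2 replicate 2 alone. These were 10.8% against 6.30% and 16.2% against 2.95% of all genes. Of Fzd6, the peaks in the d2 libraries lay at different places. The fold enrichments of those single-library start peaks ran from 4.33 at Wnt10a to 7.86 at Wnt4. Wnt5b counted at both time points only through different starts. Its peaks were in d2 replicate 2 (5.56) at one start and in d4 replicate 1 (4.85) at another, which had no d2 peak. Over all Wnt regions, 32 of 143, or 22.4%, were called in d2 replicate 2 alone, against 9.59% of all regions. Within 1 kb of a start the share was 28.9% against 7.06%. For d2 replicate 1 alone it was 13.3% against 5.57% within 1 kb of a start, and 11.89% against 11.91% over all regions. Of the 4 libraries d2 replicate 2 had the lowest background coverage, and the part of depth in these calls was not tested.

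The 24 regions called in every library allowed a test of their size. Log2 fold enrichments were centred on the median of each library and compared between d4 and d2 with limma over all 11494 shared regions, with Benjamini-Hochberg adjustment. A region had to be called at both time points to enter, so large changes are missing by construction. No Wnt region passed an adjusted p of 0.05 in either direction, whereas over all shared regions 0.548% (63) were higher and 0.522% (60) lower at d4. With no centring 42 were higher and 134 lower, and with summit pileup 706 (6.14%) and 319 (2.78%). At an unadjusted p of 0.05 limma gave 3 of the 24, or 12.5% against 14.2% of all shared regions. Both d4 values lay above both d2 values in 4 of 24 regions, or 16.7% against 23.6% of all, and below in 6, or 25.0% against 20.3%, on the centred scale. The median log2 difference of the 24 regions was -0.02, against 0.02 over all shared regions.

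The 3 regions with the smallest p were the promoters of Wnt2, Tcf7l2 and Wnt16. The Wnt2 promoter had a centred log2 difference (d4 minus d2) of 0.63 with an SE of 0.23, a 95% interval from 0.15 to 1.10 and a limma adjusted p of 0.194. Tcf7l2 had fold enrichments of 8.93 and 7.89 at d2 and 4.46 and 5.72 at d4, a difference of -0.62 with an SE of 0.24 and a limma adjusted p of 0.214. With summit pileup in place of fold enrichment, Tcf7l2 was called lower at d4, with a difference of -0.93 and a limma adjusted p of 0.0294. Wnt16, a ligand that acts in blood stem cell formation, had 10.3 and 12.1 at d2 and 5.87 and 7.89 at d4, a difference of -0.60 with an SE of 0.23 and a limma adjusted p of 0.222. These groups of libraries did not overlap, but the differences did not pass the adjustment over all regions.

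**Figure D4:**
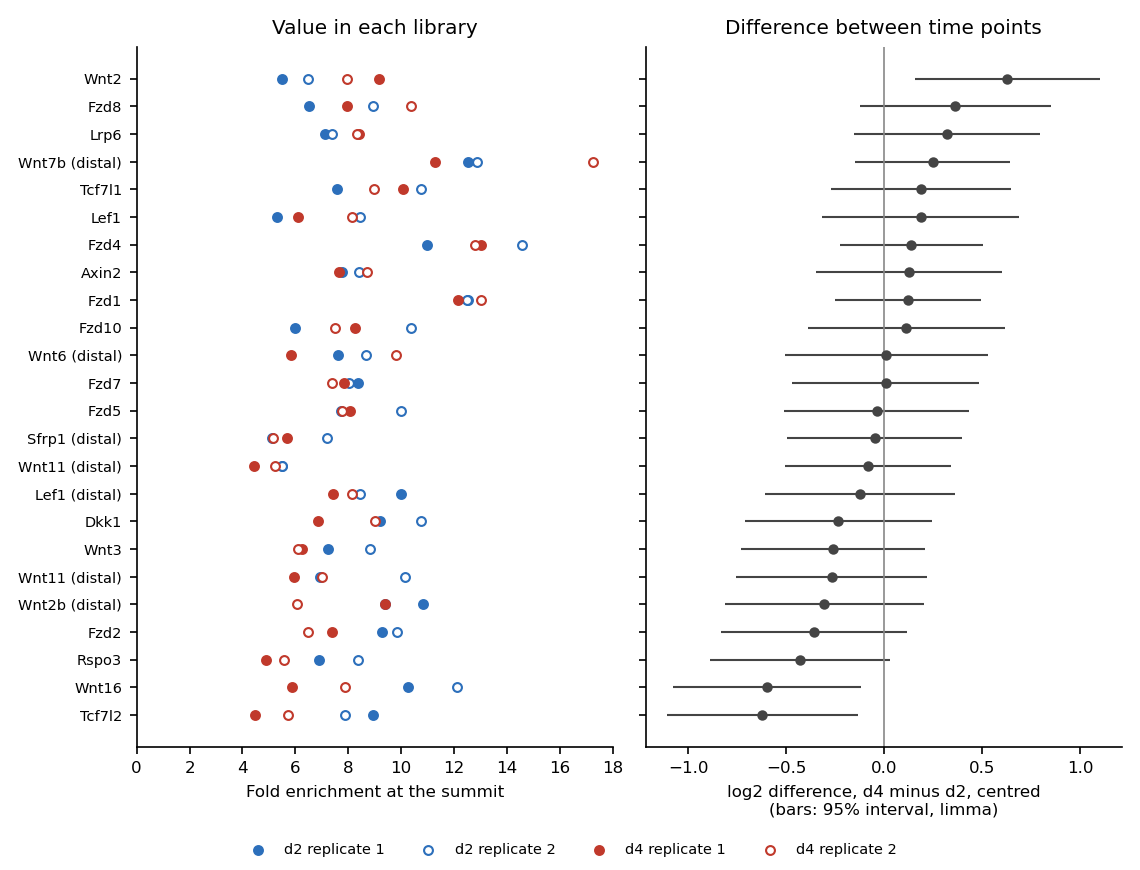
Left, fold enrichment at the summit (ratio) of the 24 shared regions in each of the 4 libraries. Right, the log2 difference of d4 minus d2 after centring each library on its median, with 95% intervals from limma. The intervals of Wnt2 (0.15 to 1.10), Wnt16 and Tcf7l2 leave out 0, and no region passed the adjusted threshold.

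The other shared regions differed less. Rspo3 had a difference of -0.43 with an interval from -0.89 to 0.03, Wnt3 one of -0.26 from -0.73 to 0.21, and Dkk1 one of -0.23 from -0.71 to 0.24. Among receptors, Fzd7 had 0.01 from -0.47 to 0.49, Fzd10 0.11 from -0.39 to 0.61, and Lrp6 0.32 from -0.16 to 0.79. Axin2 had 0.13 from -0.35 to 0.60, Tcf7l1 0.19 from -0.27 to 0.65, and the Lef1 promoter 0.19 from -0.32 to 0.69. The upstream region of Sfrp1 had -0.05 from -0.50 to 0.40, and the stronger Wnt11 region -0.27 from -0.76 to 0.22. All of these intervals include 0, and none shows that the 2 time points are alike.

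Short consensus words were counted in the summit windows on both strands. A GATA word stood in 9 of 15 gained Wnt windows, or 60.0%, against 49.7% of all gained regions of protein-coding genes. It stood in 2 of 26 lost windows, or 7.69% against 6.96%, and in 3 of 24 shared windows, or 12.5% against 4.25%. The gained windows with a GATA word belonged to 7 genes: Wnt2 (2 windows), Fzd4 (2), Wnt3, Fzd10, Tcf7l1, Dkk1 and Axin2. TCF/LEF words were rarer. They stood in 2 of the gained windows, at Wnt2 and Fzd10, or 13.3% against 10.1%, and in 3 of the lost windows, at Fzd10, Wnt7a and Wnt8a, or 11.5% against 6.25%. In the shared windows the count was 4 of 24, or 16.7% against 2.85%. The octamer word ATTTGCAT of OCT4 was found in no gained window, against 0.538% of all gained regions, in 2 lost ones, at Tcf7 and Wnt7b (7.69% against 3.39%), and in 2 shared ones (8.33% against 1.26%). The SP/KLF words GGGCGG or GGGTGG, typical of promoters, were found in 3 of 15 gained windows (against 24.7% of all) and 15 of 26 lost windows (57.7% against 47.3%).

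**Figure D5:**
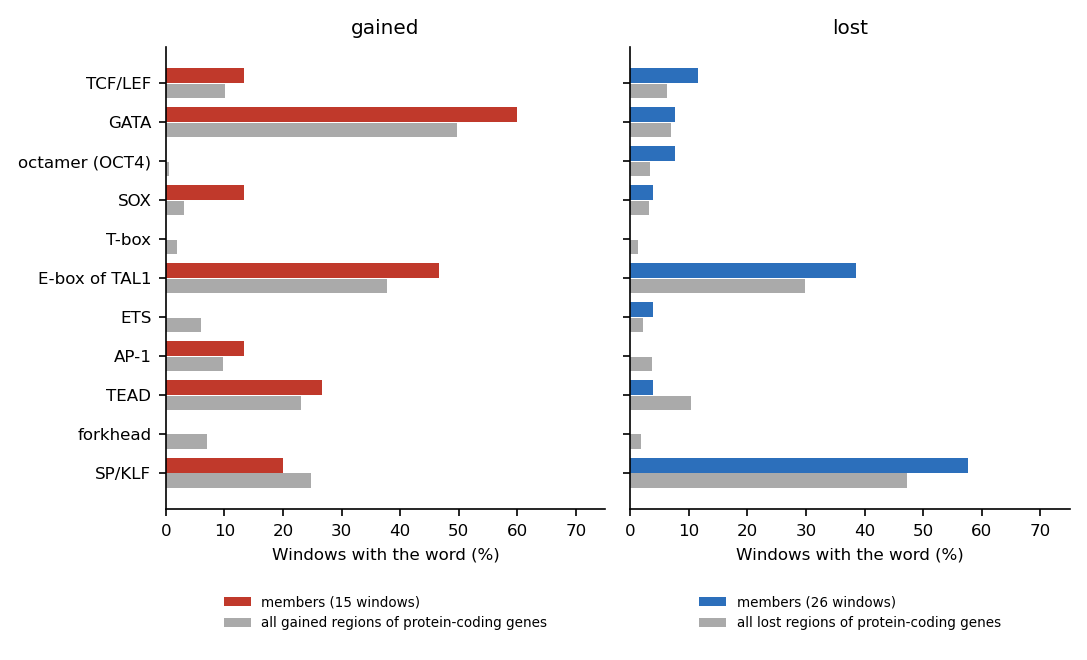
Percent of windows that hold each word, in gained regions (left, 15 Wnt windows) and lost regions (right, 26 Wnt windows), with all gained or lost regions of protein-coding genes in grey. GATA words were in 60.0% of the gained Wnt windows and 49.7% of all gained ones, against 7.69% and 6.96% of the lost ones.

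Of the remaining words, the E-box of TAL1 (CAGCTG or CAGATG) was in 7 gained and 10 lost windows, or 46.7% against 37.7% and 38.5% against 29.8%. TEAD words (GGAATG) were in 4 gained windows (26.7% against 23.0%) and 1 lost window (3.85% against 10.4%). AP-1 words (TGACTCA) were in 2 gained windows, at Wnt2 and Fzd4, or 13.3% against 9.76%, and in no lost window, against 3.71% of all. SOX words (CATTGTT) were in 2 gained windows (13.3% against 3.13%) and 1 lost window (3.85% against 3.26%). ETS words (CAGGAAGT or ACCGGAAGT) were in no gained window, against 6.02% of all, and in 1 lost window (3.85% against 2.20%). T-box words (AGGTGTGA or AGGTGTTA) were in neither set, against 1.82% of all gained and 1.34% of all lost regions, and forkhead words (TGTTTAC) were in neither, against 7.03% and 1.77%. A match is a string of letters and not evidence of binding. The GC content of the windows had a median of 52.2% in the gained, 57.2% in the lost and 67.2% in the shared Wnt regions, against 51.7%, 57.2% and 65.2% over all regions of protein-coding genes.

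Of 82 other Wnt pathway genes, 78 had 259 regions, of which 22 were gained (8.49%), 42 lost (16.2%) and 64 shared (24.7%). Over all regions of protein-coding genes these shares were 8.48%, 13.2% and 31.9%. Among target genes of the pathway, 7 of 47 regions were gained (14.9%). Of these, 3 were at the adhesion receptor Cd44 and 1 each at T, the brachyury gene of mesoderm, Cdx2, Ccnd1 and Sp5. In the same list 8 were lost (17.0%), 2 of them at Myc and 1 each at Cdx2, Ccnd1 and Sp5, which thus had both kinds. Planar polarity genes had 6 gained and 6 lost regions of 36 (16.7% each), with 3 gained and 2 lost at Prickle1. Receptors and their regulators had 2 gained and 9 lost of 42 (4.76% and 21.4%). The lost ones included 2 at the ubiquitin ligase gene Rnf43 and 2 at Ror2. Cytoplasmic components had 3 gained and 8 lost of 38 (7.89% and 21.1%), and nuclear cofactors 1 and 5 of 45 (2.22% and 11.1%). Secreted antagonists had 2 and 2 of 32 (6.25% each), with Cer1 and Wif1 gained. Genes of ligand secretion had 1 gained and 2 lost of 8 (12.5% and 25%), and the remaining ligands and R-spondins 0 and 2 of 11 (0% and 18.2%). Of the 64 shared regions of these genes, none was called higher or lower with limma, and 8 had an unadjusted p under 0.05, or 12.5% against 14.2% of all shared regions. With summit pileup 4 were called higher and 4 lower, or 6.25% each, against 6.14% and 2.78%.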

How the data were processed

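ATAC-seq peak lists of 2 d2 and 2 d4 libraries of mESCs were used, 1 list per library, with groups and replicate numbers from the labels. According to the methods and the submitters' processing notes, reads were checked with FastQC, trimmed with cutadapt and aligned to mm10 with Bowtie2. Mitochondrial, duplicate and multiply mapped reads were removed, MACS2 called peaks per library without pooling, and peaks in blacklisted regions were discarded. The fold enrichment deposited by the authors is the ratio of pileup to local background at the summit, with 1 added to each. The deposited −log10 p and −log10 q values come from the same caller. The stated peak calling combines paired-end mode with a shift and an extension, and which of these was in force is not given in the sources used here. The summit would mark fragment coverage in the first case. The peak lists hold no read counts, so a region without a peak has no value.

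Whole summit pileups and the background coverage were solved from the fold enrichment and p-value of each peak (to within 0.01 in −log10 p), and background coverage served as relative depth. Peaks overlapping by at least 1 bp were merged. Starts were those of protein_coding transcripts in GENCODE release M 21, which uses the mm10 build, and no peak ran past a chromosome end. Shared regions were compared with limma 3.58.1 in R 4.3.3, on centred log2 fold enrichments with a variance trend, with 2 replicates per time point and no block. The code was tested on simulated data. With separate differentiation experiments as replicates, p-values measure the spread between experiments. For each region limma drew this spread, which also sets the intervals, mostly from all shared regions. Prior and residual degrees of freedom came to 26.7 together. The sources used here do not say whether d2 and d4 libraries with the same number came from the same experiment. The correlation of their deviations was -0.0016 over shared regions, which does not settle the pairing. Words were searched in windows of 100 bases to each side of the summit of the strongest peak.

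The genes, the lists and the words were chosen with earlier results of these data known. All gained and lost regions of the listed genes were described, and the shared regions of 16 genes listed by name where they had one. Shared regions of other genes are in the plots, and Wnt16 was named after its value was seen. Alternatives were stricter peak thresholds, the top 15000 peaks of each library, merging within 500 bp, other start sets, a limit of 20 kb, distance from the midpoint, other scalings and fits, and leaving out each library.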

Additional observations from a re-analysis of the deposited data

How the results depend on the processing

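The counts of gained, lost and shared Wnt regions were 15, 26 and 24. They changed by over 1.5 times as follows. A −log10 q of at least 10 gave 9, 14 and 9. The top 15000 peaks of each library gave 14 lost and 12 shared regions. Starts of genes of any type left 3 gained and 16 lost regions, and a limit of 20 kb left 4 and 16. The gained share of the Wnt regions was then 3.33% against 9.67% of all, and 4.76% against 5.65%. Leaving out each library in turn gave 15 to 29 gained, 28 to 58 lost and 24 to 27 shared regions, the highest gained count without d4 replicate 2 and the highest lost counts of 58 and 46 without d2 replicate 1 and 2. With a −log10 q of at least 5, merging within 500 bp or the starts of all coding transcripts, every count stayed within 1.5 times. With the starts of all coding transcripts, however, the gained share was 7.87% against 8.71% of all. It also lay below that of all without d4 replicate 1, at 13.95% against 15.26%. Lost Wnt regions outnumbered gained ones in each setting but the one without d4 replicate 2, where both were 29.

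No shared Wnt region was called by limma, and this held in each alternative except summit pileup, which called 1 lower (Tcf7l2, -0.93). Over all shared regions the 63 higher and 60 lower calls became 706 and 319 with summit pileup, 42 and 134 with no centring, 25 and 30 without the variance trend, 31 and 23 at a −log10 q of at least 10, and 1 to 267 higher and 3 to 92 lower when a library was left out. The fewest came without d4 replicate 1. With the replicate block 146 were higher and 121 lower, and 0 Wnt regions were called. Whether equal numbers stand for the same experiment is not known, so the block result is given here alone.

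Differences near 0 changed sign without being called. Fzd7 became -0.0061 with summit pileup, -0.10 with no centring and -0.0283 at a −log10 q of at least 10, and Wnt6 became -0.43 with summit pileup and -0.10 with no centring. Without 1 library, Fzd7 ranged from -0.12 to 0.14, Wnt6 from -0.37 to 0.39, the Lef1 upstream region from -0.35 to 0.10, the Lef1 promoter from -0.0486 to 0.42, Fzd10 from -0.18 to 0.41, the weaker Wnt11 region from -0.21 to 0.0428, Fzd5 from -0.12 to 0.0468, Sfrp1 from -0.20 to 0.10, Wnt7b from -0.067 to 0.56 and Wnt2b from -0.61 to 0.0012. Pileups of 6 to 34 at the summit limit the gained and lost calls, and a weak region can miss the threshold in 1 library.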
